A study of Homo sapiens with 10 samples.

Results

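Nuclear genes for subunits of the 5 complexes of oxidative phosphorylation were taken from the table of TPM (a read level corrected for transcript length and library size, which sums to the same total in each library) by their names, that is NDUFA, NDUFB, NDUFC, NDUFS, NDUFV and NDUFAB genes, UQCR genes, COX4 to COX8 genes, ATP5 genes and SDHA to SDHD, without hyphenated names and pseudogene names. This gave 97 gene identifiers of 64940, with 88 distinct symbols. Of the 97, 9 were second identifiers of NDUFA6, NDUFA3, NDUFS1, UQCRC2, COX8C and ATP5IF1 that lie outside the primary chromosomes of GENCODE 44 and stood at 0 in all libraries. A further 7 had a mean TPM under 1, and the remaining 81 were tested among 16687 genes. CYC1, the nuclear cytochrome c1 subunit of complex III, is not matched by these names and is given with the electron carriers. NDUFA4 and NDUFA4L2 were counted with complex IV, of which NDUFA4 is a subunit despite its name.

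The libraries came from cells derived from the human embryonic stem cell (hESC) line H9. The control group (n = 2) was labelled as wild-type, spontaneously differentiated SD cells. The oeDAZL group (n = 2) was labelled as human primordial germ cell-like cells (hPGCLCs) overexpressing DAZL, an RNA-binding protein of germ cells. Per the methods of the study, hESCs were differentiated in BMP4 and BMP8a and DAZL was delivered by lentivirus. For the miRNA libraries, the methods also describe a GFP lentivirus for the controls and collection of the cells by flow sorting. The design text of the series calls the controls wild-type PGCLCs instead, and the study also names both groups hPGCLCs, so DAZL and a difference in cell state or culture between the groups cannot be told apart. Nothing states that the 2 libraries of a group came from separate cultures, and the p-values then measure only the spread between these libraries.

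Oxidative phosphorylation is the process by which mitochondria turn the energy of NADH and succinate into ATP. Complexes I and II pass electrons to coenzyme Q, complex III passes them on to cytochrome c, and complex IV gives them to oxygen. Complexes I, III and IV pump protons across the inner membrane, and complex V, the ATP synthase, uses their return flow to make ATP. Complexes I, III, IV and V also hold subunits encoded by mitochondrial DNA, so each of them is built from the products of both genomes, whereas complex II is nuclear throughout.

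DAZL itself stood at 101.7 and 100.7 TPM with oeDAZL, and the control libraries listed it at 0 and 0.0333 TPM, which matches the labels. TPM holds no read depth, so the counting error of each value is unknown. Of the 8 primordial germ cell markers, 6 were tested. At an unadjusted p of at most 0.05 in limma, 0 were called, beside 5.02% of all tested genes higher and 15.2% lower. DDX4 was at 0 in every library, and NANOS3 stood at 0.732 to 1.66 TPM. The 8 markers summed to 63.7 to 71.2 TPM in the controls and 58.1 to 63.7 TPM in the oeDAZL libraries. These markers were thus not higher in the group that the labels call hPGCLCs. Of 6 pluripotency markers, 2 of the 5 tested (40%) were called higher and 0 lower, beside 5.02% and 15.2% of all tested genes. The 2 were POU5F1, which primordial germ cells also express (13.6 and 10.6 TPM in the controls against 22.4 and 20.4 TPM with oeDAZL), and TDGF1 (5.05 and 8.26 TPM against 14.1 and 10.6 TPM). The other 3 tested, LIN28A (476 and 428 TPM against 417 and 401 TPM), SOX2 (5.16 and 2.57 TPM against 2.16 and 2.04 TPM) and DPPA4 (45.3 and 44.2 TPM against 40.5 and 42.4 TPM), had lower values in both oeDAZL libraries and were not called. The sum of the list was 546 and 495 TPM in the controls against 497 and 477 TPM. Of 7 mesoderm and mesenchyme markers, 4 (COL1A1, COL3A1, LUM and TBXT) were called lower and 1 (HAND1) higher, beside 15.2% and 5.02% of all tested genes, and their sum was 2624 and 2447 TPM in the controls against 2116 and 2155 TPM with oeDAZL. COL3A1 was at 583 and 479 TPM in the controls and 224 and 220.4 TPM with oeDAZL, and it alone of the markers listed passed a Benjamini-Hochberg adjusted p under 0.05 in limma (0.0344). Of 6 amnion and trophoblast markers, 3 (50%) were called lower (ISL1, VTCN1 and CGA) and 0 higher, beside 15.2% and 5.02% of all tested genes. The sums of the 6 were 2524 and 2296 TPM in the controls and overlapped those of 2298 and 2344 TPM with oeDAZL. Of 3 neural, 5 endoderm and 3 muscle markers tested, 1 in each list was called lower (PAX6, AFP and TNNT2) and 0 higher. This was 33.3%, 20% and 33.3% lower, beside 15.2% of all tested genes. The endoderm sums overlapped, at 257 and 153 TPM in the controls against 156 and 197 TPM with oeDAZL. The endoderm call was lost under each of the 3 other scalings (median-of-ratios, quantile, and TPM rescaled without mitochondrial genes). TUBB3, which made up most of the neural sum, was at 179 and 229 TPM against 249 and 225 TPM and was not called. Any part of these marker differences in the results below was not tested. In bulk samples, fewer cells of a type and less RNA per cell cannot be told apart.

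The subunit genes were nearly level between the groups. Their median log2 fold change on the log2(TPM + 1) scale was 0.03, beside -0.08 for all tested genes, and 75 of the 81 lay within 0.25 of 0. A positive value was seen for 57 of the 81 (70.4%), beside 34.7% of all tested genes. At an unadjusted p of at most 0.05 in limma, 6 of the 81 (7.41%) were called higher, beside a background of 5.02% of all tested genes. Another 4 of the 81 (4.94%) were called lower, beside 15.2%. None passed a fold of at least 2 at that p (0 of 81, beside 0.689% of all tested genes), and none passed a Benjamini-Hochberg adjusted p under 0.05 (0 of 81, beside 0.0599%). The lowest adjusted p of a member in limma was 0.158. Both oeDAZL libraries lay above both controls for 25 members (30.9%), beside 16.0% of all tested genes. Both lay below for 8 members (9.88%), beside 38.4%.

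**Figure D1:**
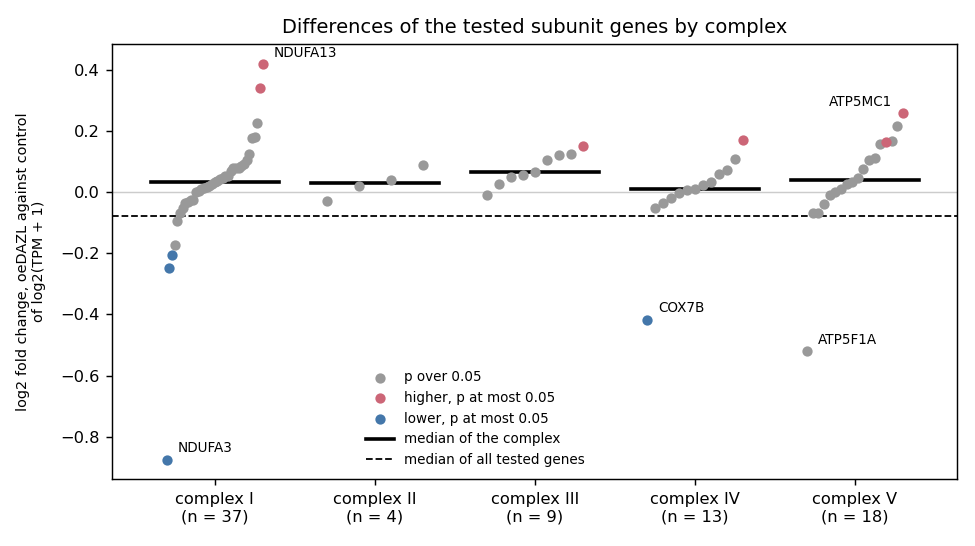
Each point is 1 tested subunit gene, grouped by complex on the x axis and placed by its log2 fold change (oeDAZL against control, on log2(TPM + 1)) on the y axis. Bars are medians of a complex and the dashed line is the median of all tested genes, -0.08. The medians of the complexes lie between 0.01 and 0.07, and NDUFA3, ATP5F1A, COX7B and NDUFA13 lie farthest from them.

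These counts depended on how the libraries were scaled. With median-of-ratios scaling the median of all tested genes moved to 0.00 and that of the members to 0.12, and 20 members were called higher and 1 lower, beside 9.95% and 9.16% of all tested genes. NDUFV1, NDUFS4 and COX7B lost their calls there, and NDUFA3 kept its call. SDHA, COX4I1, NDUFS5 and ATP5MC3 were among the members that gained a call there. The share of calls that were higher was thus 60.0% as reported and 95.2% under that scaling for the members, and 24.9% and 52.1% for all tested genes. With quantile normalization 10 members were called higher and 1 lower, beside 8.40% and 9.07% of all tested genes. Without a trend in limma, 0 members were called higher and 2 lower, beside 3.39% and 13.9% of all tested genes, so all 6 higher calls were lost. Leaving out 1 library gave 2 (without oeDAZL replicate 1) to 13 (without control replicate 2) members called higher and 1 (without oeDAZL replicate 2) to 3 called lower, and the share of all tested genes called higher moved with it, from 2.14% to 8.04%, as that called lower ran from 7.35% to 19.7%. Each of the 10 calls was lost without at least 1 of the 4 libraries. Of the called members, the log2 fold change moved by more than 1.5 times with the loss of 1 library for NDUFA13 (0.19 without oeDAZL replicate 2 to 0.65 without oeDAZL replicate 1), NDUFA3 (-0.48 without oeDAZL replicate 2), NDUFA5 (0.20 without control replicate 1), NDUFV1 (-0.12 without control replicate 1), COX7B (-0.23 without control replicate 2) and ATP5MC1 (0.16 without control replicate 1). ATP5MC1 and ATP5MG passed an adjusted p under 0.05 in limma without control replicate 2, and ATP5F1A without oeDAZL replicate 1. In each of the 14 fits the members' median was above 0 and above that of all genes, by 0.06 to 0.17 on the log2 scale.

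**Figure D2:**
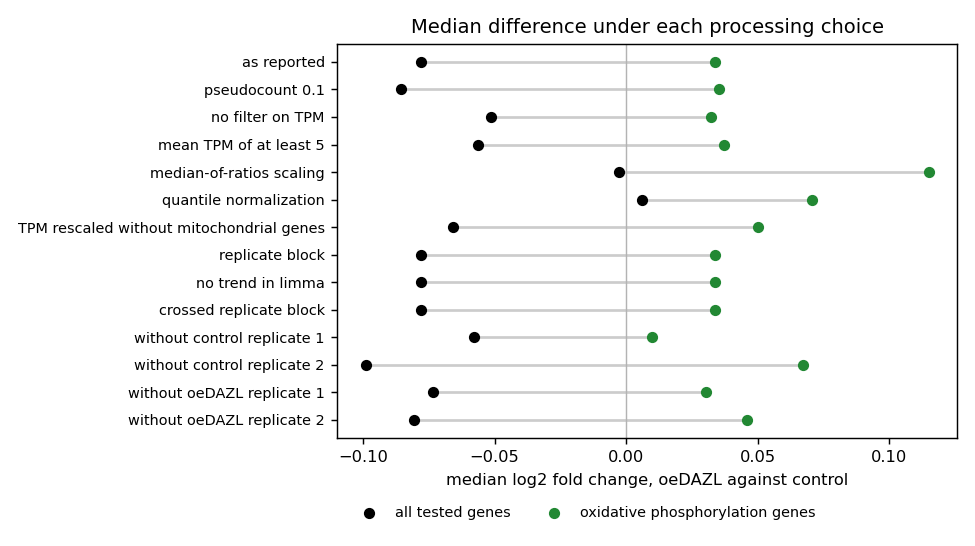
The x axis gives the median log2 fold change (oeDAZL against control) of all tested genes in black and of the oxidative phosphorylation genes in green, and each line on the y axis is 1 processing choice. The green point lies to the right of the black point in each, with the members' median between 0.01 without control replicate 1 and 0.12 with median-of-ratios scaling.

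Levels ranged widely within a complex. TPM is per length, so levels can be set side by side. In complex I the mean TPM over the 4 libraries ran from 1.22 for NDUFA3 to 242 for NDUFS5, with a median of 69.9. Complex II had the narrowest range, from 29.3 for SDHC to 84.9 for SDHD. Complex III ran from 2.35 for UQCRHL, an intronless copy of UQCRH, to 268 for UQCRC1, and complex IV from 1.53 for COX4I2, an alternative form of COX4I1, to 454 for COX4I1. Complex V ran from 24.6 for ATP5F1E, the epsilon subunit of the F1 head, to 718 for ATP5F1B, its catalytic beta subunit. SDHA and SDHD (83.9 and 84.9 TPM on average) had overlapping values across libraries, as did UQCRC1 and UQCRH (268 and 247 TPM).

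**Figure D3:**
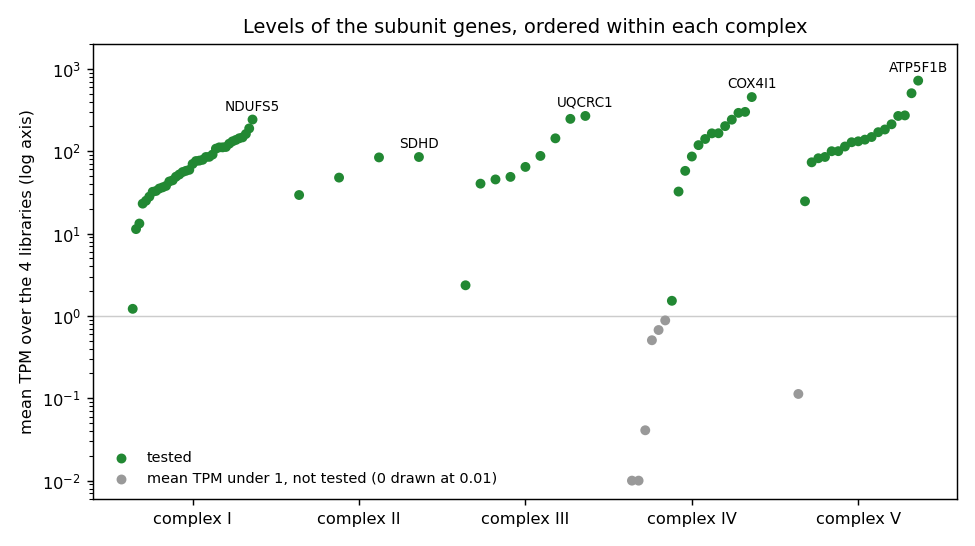
The y axis is the mean TPM over the 4 libraries on a log scale, with the genes of each complex ordered by level along the x axis. Green points were tested, and grey points are genes with a mean under 1 TPM (values of 0 are drawn at 0.01). The highest gene of each complex is named, from 84.9 TPM for SDHD to 718 TPM for ATP5F1B.

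Summed over its subunits, complex I took 2808 and 2925 TPM in the controls and 2934 and 2993 TPM with oeDAZL. Complex II took 245 and 239 TPM against 247 and 253 TPM, and complex III took 901 and 937 TPM against 987 and 958 TPM. For these 3 complexes both oeDAZL libraries were higher, by 1.03, 1.03 and 1.06 times in the means. Complex IV (2162 and 2293 TPM against 2309.5 and 2255 TPM) and complex V (3423 and 3511 TPM against 3602 and 3271 TPM) overlapped between the groups. All members together made up 0.954% and 0.991% of the controls and 1.01% and 0.973% of the oeDAZL libraries. ATP5F1A, given below, was low in oeDAZL replicate 2 alone. Without it, a choice made after seeing the data, the members made up 0.895% and 0.934% of the controls. The oeDAZL libraries were then at 0.949% and 0.946%, and the groups did not overlap. With 2 libraries against 2, an exact permutation test cannot give a p under 0.33, and the sums were not tested.

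Complex I, the NADH dehydrogenase, had 37 tested members with a median log2 fold change of 0.03, of which 2 (5.41%) were called higher and 3 (8.11%) lower, beside 5.02% and 15.2% of all tested genes. The 7 nuclear core subunits, which carry NADH oxidation and electron transfer, had a median of 0.03 and the 30 tested accessory subunits also one of 0.03. Within the core, NDUFV1, the NADH-binding subunit (chr11:67605653-67612554, hg38, plus strand, 10 exons), was at 183 and 164 TPM in the controls and 154 and 146 TPM with oeDAZL. Both oeDAZL libraries were lower, and the log2 fold change was -0.20 ± 0.07 (SE), with an unadjusted p of 0.0280 and a Benjamini-Hochberg adjusted p of 0.200 in limma. The other 6 core subunits were not called.

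NDUFS4, an accessory subunit by the NADH-oxidizing end of the complex (chr5:53560633-53683338, plus strand, 5 exons), was at 39.5 and 39.7 TPM in the controls and 34.5 and 31.8 TPM with oeDAZL. The groups did not overlap, and the control values were nearly equal. Its log2 fold change was -0.25 ± 0.08, with an unadjusted p of 0.0164 and an adjusted p of 0.168 in limma.

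NDUFA3, a small membrane-bound accessory subunit (chr19:54102728-54109257, plus strand), was the lowest tested gene of the complex at 1.66 and 2.01 TPM in the controls and 1.03 and 0.171 TPM with oeDAZL. It had the largest fall of complex I, -0.87 ± 0.33, with an unadjusted p of 0.0366 in limma, at a level where the pseudocount of 1 weighs on the value. With a pseudocount of 0.1 its log2 fold change was -1.80, with a p of 0.0534 in limma. With no filter on TPM the p in limma was 0.0624. NDUFA3 has a second identifier outside the primary chromosomes that stood at 0 in all libraries. Its pseudogene NDUFA3P1 was listed at 2.05 and 0.995 TPM in the controls and 0.353 and 0.361 TPM with oeDAZL. Another, NDUFA3P4, stood at 0.192 TPM or less in every library. Only uniquely mapped reads were kept by the authors, and whether this bears on the low level was not tested.

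NDUFA13, an accessory subunit also known as GRIM-19 (chr19:19515736-19529054, plus strand, 5 exons), had the largest rise of the complex. It was at 85.7 and 103 TPM in the controls and 108 and 148 TPM with oeDAZL. The lower oeDAZL library lay just above the higher control, and the log2 fold change was 0.42 ± 0.16, with an unadjusted p of 0.0382 in limma. With no filter on TPM the p in limma was 0.0973, and the call was lost. AC011448.1, a protein-coding gene on the same strand that overlaps NDUFA13, moved the other way, from 35.4 and 30.8 TPM to 22.7 and 9.58 TPM. YJEFN3, another protein-coding gene that overlaps NDUFA13 on its strand, also did so, from 21.7 and 19.5 TPM to 14.9 and 15.2 TPM. Summed over NDUFA13 and AC011448.1, the values of 121 and 134 TPM in the controls and 130.3 and 157 TPM with oeDAZL overlapped. How reads were divided between the overlapping genes was not tested.

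NDUFA5, an accessory subunit of the matrix arm (chr7:123536997-123557904, minus strand), was at 30.0 and 36.6 TPM in the controls and 44.4 and 40.3 TPM with oeDAZL. The groups did not overlap, and the log2 fold change was 0.34 ± 0.11 with an unadjusted p of 0.0217 in limma. NDUFS5, the most abundant member of the complex, was at 221 and 246 TPM against 250.0 and 251 TPM, with a log2 fold change of 0.10 ± 0.07 and a p of 0.159 in limma. The 32 members of complex I that were not called had log2 fold changes of -0.17 to 0.23.

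None of the 4 genes of complex II, succinate dehydrogenase, which also works in the tricarboxylic acid (TCA) cycle, was called as reported. SDHA, the succinate-oxidizing flavoprotein, had the largest difference, at 81.1 and 81.6 TPM in the controls and 86.5 and 86.5 TPM with oeDAZL (log2 fold change 0.09 ± 0.06). The groups did not overlap, but the p in limma was 0.172. Under median-of-ratios scaling SDHA was called higher, with a log2 fold change of 0.17 and an unadjusted p of 0.0251 in limma. SDHC, a membrane anchor, had the lowest value, at 30.5 and 28.7 TPM against 31.0 and 27.1 TPM (-0.03 ± 0.09). SDHD, the other anchor and the most abundant of the 4, was at 86.7 and 80.5 TPM against 78.6 and 93.7 TPM, with overlapping groups. SDHA is also overlapped on its strand by AC021087.5, at 1.80 to 5.72 TPM. Its pseudogene SDHAP1 was listed at 34.6 and 22.2 TPM in the controls and 25.4 and 22.6 TPM with oeDAZL. Another, SDHAP3, was at 19.2 and 16.1 TPM against 12.5 and 11.6 TPM, with both oeDAZL libraries lower.

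Complex III, the cytochrome bc1 complex, had the highest median of the 5 complexes as reported, 0.07, with 1 of its 9 tested members (11.1%) called higher and 0 lower, beside 5.02% and 15.2% of all tested genes. Without control replicate 1 its median of 0.0454 lay below that of complex II, 0.0475. UQCRH, the hinge protein at the site of cytochrome c1 (chr1:46303698-46316776, plus strand, 4 exons), was at 229.6 and 238 TPM in the controls and 256 and 263 TPM with oeDAZL. Both oeDAZL libraries were higher, with a log2 fold change of 0.15 ± 0.05, an unadjusted p of 0.0268 and an adjusted p of 0.196 in limma. Its copy UQCRHL was at 1.98 and 2.66 TPM against 2.79 and 1.99 TPM and overlapped between the groups (0.03 ± 0.23). The core protein UQCRC1 was the most abundant member, at 252 and 273 TPM against 273 and 272 TPM (0.06 ± 0.06, p of 0.380 in limma). UQCRC2, the other core protein, had the lowest log2 fold change, -0.01 ± 0.07, at 151 and 137 TPM against 146 and 139 TPM.

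Complex IV, cytochrome c oxidase, had a median of 0.01 over 13 tested members, with 1 (7.69%) called higher and 1 lower, beside 5.02% and 15.2% of all tested genes. Its median was -0.05 without control replicate 1. COX6A1, the widespread form of subunit 6A (chr12:120438090-120440737, plus strand, 3 exons), was at 283 and 281 TPM in the controls and 315 and 319 TPM with oeDAZL. The replicates lay close together and the groups apart, with a log2 fold change of 0.17 ± 0.05, an unadjusted p of 0.0132 and an adjusted p of 0.158 in limma. COX7B (chrX:77899440-77907376, plus strand, 3 exons), a small subunit needed for assembly of the complex, was at 32.4 and 42.0 TPM in the controls and 26.0 and 28.8 TPM with oeDAZL. Both oeDAZL libraries were lower, but the controls differed from each other by more than the lower of them differed from either oeDAZL library. Its log2 fold change was -0.42 ± 0.13, with an unadjusted p of 0.0192 and an adjusted p of 0.177 in limma.

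Several subunits of complex IV exist in paired forms that differ between tissues, and the widespread form had the higher level in each pair. COX4I1 was at 448 and 437 TPM in the controls and 465 and 464 TPM with oeDAZL (0.07 ± 0.05), whereas COX4I2, the form known from lung and hypoxia, was at 1.20 and 1.94 TPM against 1.42 and 1.54 TPM. COX4I2 made up 0.268% and 0.442% of the summed COX4 level in the controls and 0.304% and 0.331% with oeDAZL. COX6A2, the heart and muscle form beside COX6A1, was listed at 0 in all 4 libraries, as was COX7B2 beside COX7B. Of the 8 cardiac and skeletal muscle markers, ACTC1 (472 and 726 TPM against 739 and 676 TPM), MYL7 (45.6 and 47.9 TPM against 40.7 and 44.9 TPM) and TNNT2 (26.0 and 22.4 TPM against 14.4 and 14.6 TPM) were above the filter. The other 5 (ACTN2, MYH6, MYH7, CKM and MYOD1) stood at 0 to 1.10 TPM.

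COX6B1 was at 188 and 222 TPM in the controls and 218 and 178 TPM with oeDAZL, and its testis form COX6B2 at 1.63 and 0.457 TPM against 0.816 and 0.624 TPM. COX7A2 was at 132 and 149 TPM against 139.8 and 142 TPM, and the muscle form COX7A1 at 0.623 and 0.357 TPM against 0 and 1.05 TPM. These groups overlapped. COX7A2L, which takes part in joining complexes III and IV, was nearly equal at 57.7 and 56.7 TPM against 57.7 and 58.4 TPM. COX8A was at 281 and 307 TPM against 276 and 303 TPM, whereas COX8C was listed at 0 and 0.0685 TPM against 0.0950 and 0 TPM. NDUFA4 was at 80.3 and 90.0 TPM against 84.1 and 90.0 TPM, with overlapping groups. Its hypoxia-linked relative NDUFA4L2 was at 1.46 and 0.680 TPM against 0.357 and 0.203 TPM, below the level required for the test, with both oeDAZL libraries lower.

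Complex V had 18 tested members with a median of 0.04, of which 2 (11.1%) were called higher and 0 lower, beside 5.02% and 15.2% of all tested genes. Its ring of c subunits turns as protons pass, and 3 genes, ATP5MC1, ATP5MC2 and ATP5MC3, encode the same mature c subunit with different import sequences. ATP5MC1 (chr17:48892765-48895871, plus strand, 5 exons) was at 72.2 and 82.7 TPM in the controls and 92.1 and 93.1 TPM with oeDAZL. It had the largest rise of the complex, with a log2 fold change of 0.26 ± 0.08, an unadjusted p of 0.0163 and an adjusted p of 0.168 in limma. ATP5MC2, the most abundant of the 3, was at 189 and 186 TPM against 181 and 176 TPM (-0.07 ± 0.05, p of 0.233 in limma). ATP5MC3 was at 89.5 and 98.9 TPM against 110.0 and 102 TPM (0.17 ± 0.08, p of 0.0693 in limma). The groups did not overlap for any of the 3 genes, with ATP5MC1 and ATP5MC3 higher and ATP5MC2 lower. Of all tested genes, both oeDAZL libraries lay above both controls for 16.0% and below both for 38.4%. Under median-of-ratios scaling the difference of ATP5MC2 turned to 0.01. As shares of their summed level, ATP5MC1 took 20.6% and 22.5% in the controls and 24.0% and 25.1% with oeDAZL. ATP5MC2 took 53.9% and 50.6% against 47.3% and 47.5%, and the shares of none of the 3 genes overlapped between the groups.

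**Figure D4:**
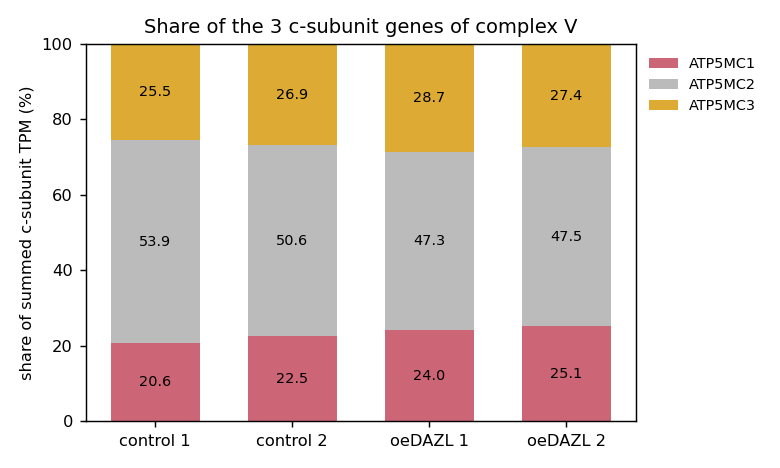
Bars give, for each library on the x axis, the percent of the summed c-subunit TPM taken by ATP5MC1, ATP5MC2 and ATP5MC3. ATP5MC1 takes 20.6% and 22.5% in the controls and 24.0% and 25.1% in the oeDAZL libraries.

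In the F1 head, which makes ATP, ATP5F1B was at 699.5 and 724 TPM in the controls and 711 and 738 TPM with oeDAZL and overlapped between the groups (0.03 ± 0.05). ATP5F1A, the alpha subunit (chr18:46080248-46104334, minus strand, 12 exons), was at 586 and 569 TPM in the controls, whereas the oeDAZL libraries were at 592 and 273 TPM. The first oeDAZL library was level with the controls and the second stood far below all others. The log2 fold change of -0.52 ± 0.32, with a p of 0.155 in limma, was the lowest of the complex and rested on that library, without which it was 0.04. The ratio of ATP5F1A to ATP5F1B was 0.837, 0.785 and 0.832 in the other 3 libraries and 0.370 in oeDAZL replicate 2. The 3 pseudogenes of ATP5F1A above 0 (ATP5F1AP2, ATP5F1AP3 and ATP5F1AP7) stood at 0.371 TPM or less in every library. Without ATP5F1A, the sum of complex V was 2838 and 2942 TPM in the controls and 3011 and 2998 TPM with oeDAZL and no longer overlapped between the groups.

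In the peripheral stalk, which holds the head still, ATP5PD (chr17:75038863-75046985, minus strand, 6 exons) was at 197 and 203 TPM in the controls and 230.4 and 218 TPM with oeDAZL. The groups did not overlap, and the log2 fold change was 0.16 ± 0.06, with an unadjusted p of 0.0254 and an adjusted p of 0.195 in limma. The other 3 stalk genes, ATP5PB, ATP5PF and ATP5PO, were not called. ATP5IF1, the inhibitor of ATP hydrolysis by the enzyme, was nearly level at 99.1 and 99.6 TPM against 97.4 and 103 TPM.

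**Figure D5:**
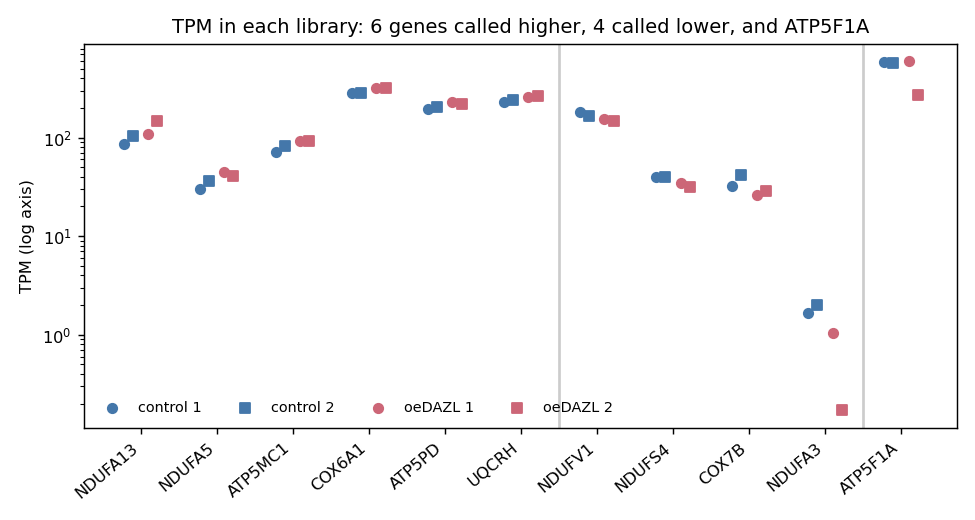
The y axis is TPM on a log scale, and each gene on the x axis has 1 point per library, blue for control and red for oeDAZL, circles for replicate 1 and squares for replicate 2. The first 6 genes were called higher and the next 4 lower at an unadjusted p of at most 0.05. ATP5F1A shows 3 libraries between 569 and 592 TPM and oeDAZL replicate 2 at 273 TPM.

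The promoters of called members are shown to set the regulatory sequence of genes that were called in 1 direction beside that of a gene called in the other. RefSeq windows (GRCh38.p14, 250 bases before to 50 bases after a start site) were found for 72 of the 88 symbols. The letters CCGGAAG, a core recognised by ETS factors such as GABPA, were found on either strand in 21 of the 72 genes (29.2%), beside 12.2% of all 27305 genes with a window. They were in 4 of the 6 genes called higher and 0 of the 4 called lower. GCGCANGCG, letters of NRF1 sites, were in 24 of the 72 (33.3%), beside 9.02% of all genes, in 2 of the 6 called higher and 1 of the 4 called lower. AAGATGGC, letters of YY1 sites, were in 12 of the 72 (16.7%), beside 3.52%, and in 0 of the 6 and 2 of the 4 (NDUFA3 and NDUFS4). The letters GGGCGG were in 44 of the 72 (61.1%, beside 48.3%), with the same split as CCGGAAG, 4 of the 6 and 0 of the 4. The letters TGACGTCA (6.94% beside 2.25%, in 1 of the 6 and 0 of the 4) and TCAAGGTCA (1.39% beside 0.432%, in 0 of the 6 and 0 of the 4) were also searched on both strands. Matches of different motifs can overlap in a window. A match describes the sequence and is neither a site nor a cause. The starts are those of RefSeq and differ from the starts of some genes given above from GENCODE. The windows of NDUFA13 and NDUFV1 thus lie within those genes, and most of the window of NDUFA3 lies within its gene. NDUFA5 has several windows, some of them far upstream of its GENCODE start. GCGCANGCG is also in windows of COX6A1 and NDUFA5, both called higher, and in COX6A1 it lies outside the bases printed. The 150 bases before the start are given 5′ to 3′ on the strand of the gene. They are shown for the 4 higher genes with CCGGAAG (or its reverse complement) in capitals, and for NDUFA3, called lower, with GCGCANGCG in capitals.
ATP5PD (chr17:75046970-75047119, minus strand): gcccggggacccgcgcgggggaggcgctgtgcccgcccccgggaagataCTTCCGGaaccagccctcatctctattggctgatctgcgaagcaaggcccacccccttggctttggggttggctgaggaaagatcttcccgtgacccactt
COX6A1 (chr12:120437963-120438112, plus strand): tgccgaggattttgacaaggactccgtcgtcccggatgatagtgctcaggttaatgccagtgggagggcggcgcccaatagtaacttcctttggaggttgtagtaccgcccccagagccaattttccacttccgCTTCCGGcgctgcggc
NDUFA13 (chr19:19516075-19516224, plus strand): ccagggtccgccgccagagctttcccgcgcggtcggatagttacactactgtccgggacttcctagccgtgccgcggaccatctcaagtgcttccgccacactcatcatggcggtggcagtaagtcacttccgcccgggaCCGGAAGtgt
UQCRH (chr1:46303548-46303697, plus strand): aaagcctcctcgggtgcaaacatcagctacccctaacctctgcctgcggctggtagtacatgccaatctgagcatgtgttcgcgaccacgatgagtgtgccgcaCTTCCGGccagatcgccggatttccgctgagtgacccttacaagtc
NDUFA3 (chr19:54102705-54102854, plus strand): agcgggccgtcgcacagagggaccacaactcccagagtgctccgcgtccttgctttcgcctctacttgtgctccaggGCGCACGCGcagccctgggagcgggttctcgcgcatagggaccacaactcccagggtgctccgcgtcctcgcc

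Context for the subunits came from lists of their partners. The 13 proteins encoded by mitochondrial DNA, the other part of complexes I, III, IV and V, all had positive log2 fold changes, with a median of 0.11. Of the 13, 4 were called higher (MT-CYB at 0.28, MT-ATP8 at 0.26, MT-ND3 at 0.23 and MT-ATP6 at 0.17) and 0 lower at an unadjusted p of at most 0.05 in limma. This was 30.8% higher, beside 5.02% of all tested genes, and 0 lower, beside 15.2%. MT-CO1 had the lowest value, 0.01. Their summed level made up 10.1% and 10.8% of the controls and 11.4% and 11.2% of the oeDAZL libraries. Divided by the summed level of the nuclear members, it was 10.6 and 10.9 in the controls and 11.3 and 11.6 with oeDAZL. The nuclear sum of oeDAZL replicate 2 includes its low value of ATP5F1A. Under median-of-ratios scaling their median was 0.20, with 7 called higher, beside 9.95% of all tested genes. With quantile normalization, which sets the values of the most abundant genes by their rank, the median was 0.00 and 8 were positive. Under it 2 were called higher, beside 8.40% of all tested genes.

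The assembly factors build the complexes without being part of them. For complex I, 14 of 19 tested factors had negative values and 5 (26.3%) positive ones, beside 34.7% of all tested genes positive. Their median was -0.12, beside -0.08 for all tested genes. Of the 19, 1 (5.26%) was called higher and 3 (15.8%) lower, close to the shares of all tested genes. TMEM126B (51.6 and 50.0 TPM against 42.8 and 43.5 TPM), ECSIT (31.8 and 32.2 TPM against 27.8 and 27.9 TPM) and ACAD9 (49.5 and 48.5 TPM against 43.1 and 43.9 TPM) were the 3 called lower. DMAC2 was the 1 called higher, at 72.4 and 74.4 TPM against 82.7 and 83.9 TPM. TMEM186 had the lowest log2 fold change of the list, -0.25 (p of 0.0789 in limma), and NDUFAF4 the highest, 0.29 (p of 0.258 in limma). Under median-of-ratios scaling the median of the 19 factors was -0.04, with 1 called higher and 0 lower, beside 9.95% and 9.16% of all tested genes.

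For complex IV, 1 of 23 tested factors (4.35%) was called higher and 2 (8.70%) lower, beside 5.02% and 15.2% of all tested genes, with a median of -0.01. Under median-of-ratios scaling the median was 0.08, with 2 called higher and 0 lower, beside 9.95% and 9.16% of all tested genes. COX20, which chaperones the subunit MT-CO2, was at 15.2 and 15.5 TPM in the controls and 24.3 and 24.4 TPM with oeDAZL. The replicates of each group were nearly equal, and the log2 fold change was 0.63 ± 0.08, with an unadjusted p of 2.63e-04 and an adjusted p of 0.0885 in limma. SURF1, known from Leigh syndrome, was at 45.2 and 45.0 TPM against 33.8 and 39.4 TPM (-0.30), and COX15, which makes heme A, at 52.6 and 46.8 TPM against 42.5 and 42.7 TPM (-0.22). Of the factors of complexes II, III and V (4, 6 and 6 tested), 0 were called higher and 1 lower, beside 5.02% and 15.2% of all tested genes. The call was for ATPAF1 of complex V, at 34.3 and 32.0 TPM against 26.2 and 28.3 TPM (-0.27). The medians of these 3 lists were -0.06, -0.07 and -0.03, and 0.02, 0.02 and 0.05 under median-of-ratios scaling. The highest and lowest log2 fold changes of each list were 0.09 for SDHAF3 and -0.18 for SDHAF1, 0.08 for LYRM7 and -0.11 for UQCC3, and 0.15 for FMC1 and -0.37 for DMAC2L, and none of these 6 was called.

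Among 16 tested electron carriers and enzymes of coenzyme Q synthesis, 0 were called higher and 3 (18.8%) lower, beside 15.2% of all tested genes. The direction depended on the scaling, with a median of -0.02 as reported. Under median-of-ratios scaling the median was 0.06, with 4 called higher and 1 lower, beside 9.95% and 9.16% of all tested genes. With quantile normalization it was 0.08, with 2 called higher and 1 lower, beside 8.40% and 9.07%. COQ4 was at 71.0 and 63.2 TPM in the controls and 48.2 and 54.2 TPM with oeDAZL (-0.38), COQ6 at 20.3 and 17.3 TPM against 13.8 and 15.4 TPM (-0.34) and COQ8B at 44.6 and 38.0 TPM against 34.7 and 34.3 TPM (-0.25). CYCS, somatic cytochrome c, had the highest log2 fold change of the list, 0.26, at 40.5 and 50.5 TPM against 55.7 and 52.9 TPM (p of 0.0585 in limma). CYC1 was at 120.2 and 115 TPM against 120.0 and 128 TPM (0.08, p of 0.269 in limma). Of 16 tested enzymes of the TCA cycle and pyruvate dehydrogenase, DLAT was called higher (0.18) and SUCLG2 lower (-0.26), beside 5.02% and 15.2% of all tested genes, with a median of 0.02. Under median-of-ratios scaling 4 of them were called higher and 0 lower, beside 9.95% and 9.16%, with a median of 0.10.

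Of 16 tested regulators of mitochondrial transcription and biogenesis, 1 (6.25%) was called higher and 1 lower, beside 5.02% and 15.2% of all tested genes, with a median of -0.03. The median was 0.05 under median-of-ratios scaling (beside 9.95% of all tested genes called higher and 9.16% lower) and 0.04 with quantile normalization (beside 8.40% and 9.07%), each with 3 called higher and 1 lower. PPARGC1A, a coactivator that drives mitochondrial biogenesis, was at 2.62 and 3.83 TPM in the controls and 5.68 and 5.68 TPM with oeDAZL. The groups did not overlap, and the log2 fold change was 0.68 ± 0.19, with an unadjusted p of 0.0120 and an adjusted p of 0.155 in limma. POLG, the polymerase of mitochondrial DNA, was at 59.9 and 51.4 TPM against 42.7 and 43.6 TPM (-0.36 ± 0.09). Of the factors whose letters were searched in the promoters, NRF1 (18.1 and 16.8 TPM against 15.6 and 14.2 TPM), GABPA (20.9 and 18.3 TPM against 18.5 and 19.5 TPM) and YY1 (48.9 and 46.8 TPM against 46.5 and 47.2 TPM) were not called. TFAM, which packages mitochondrial DNA and is a factor of its transcription, was at 37.0 and 38.2 TPM against 43.2 and 40.7 TPM (0.16, p of 0.0737 in limma).

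Most subunit genes are short, with a median spliced length of 756 bases (Ensembl canonical transcript, GENCODE 44) for the tested members and 2775 bases for all tested genes with an annotation. The 2764 tested genes shorter than 1000 bases had a median log2 fold change of -0.08, and the 49 members among them one of 0.03. The 176 entries named as pseudogenes of the members summed to 93.6 and 71.6 TPM in the controls and 67.5 and 62.4 TPM with oeDAZL. Of the members, 15 overlap another gene above 1 TPM on the same strand. The median of the members was also 0.03 without these and without ATP5F1A, an alternative chosen after seeing the data.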

How the data were processed

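RNA sequencing of 2 control and 2 oeDAZL libraries was analysed, and the miRNA libraries of the series were not analysed here. The authors deposited TPM per gene, with 1 column per library. Per the methods of the study and the submitters' processing notes, reads were trimmed with Trim Galore 0.6.4 (the methods name another version), mapped to hg38 with HISAT2 2.1.0, restricted to unique hits and quantified with StringTie 2.1.4. The annotation release is not given in the sources used here. Of 65003 entries, 45 copies of pseudoautosomal genes and 18 repeats were left out.

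Here, limma 3.58.1 with a trend (R 4.3.3) was fitted to log2(TPM + 1) over the 16687 genes whose mean reached 1 TPM, with Benjamini-Hochberg adjustment over all of them, since the read counts that the study tested with DESeq2 were not used here. The fold change therefore understates changes of low genes. The fit was run on simulated data in which 200 of 16687 genes had a log2 change of 2. At a fold of at least 2 and an unadjusted p of at most 0.05 in limma, 100% of the 200 were called in the right direction. Of the unchanged genes, 7 were called. Changes as small as those of the members, and calls by p alone, were not simulated. Calls used an unadjusted p of at most 0.05. Members, lists and motifs were chosen with earlier results of these data known.

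Per library, values were given for the most abundant member, the largest rise and the largest fall of each complex, and for every call. They were also given for the sets of paralogous isoforms, except ATP5MG with ATP5MGL, and for most called genes of the pathway lists. Other called genes and extremes of those lists were given by their log2 fold change. Called markers were named, some with values. ATP5IF1, the regulators searched as motifs, TFAM and some markers were named outside this rule, after their values were seen. Values after ± are SE. Gene positions are those of GENCODE 44 (hg38), and promoter sequences are those of RefSeq (GRCh38.p14), matched by symbol or synonym (88 of 88 symbols). The alternatives were another pseudocount, other filters, other scalings, no trend, a replicate block and the loss of each library.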

Additional observations from a re-analysis of the deposited data

How the results depend on the processing

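As reported, 6 members were called higher and 4 lower. Median-of-ratios scaling gave 20 higher, 1 lower and a members' median of 0.12, with medians of 0.11, 0.11, 0.15, 0.0929 and 0.12 for complexes I to V. Quantile normalization gave 10 higher, 1 lower and a median of 0.0709, with 0.0764 for complex I and 0.16 for complex III. Rescaling without mitochondrial genes gave 0.0507 for complex I. Without a trend limma called 0 higher and 2 lower, and at a fold of at least 2, or at an adjusted p under 0.05, it called 0 in either direction. The log2 fold change changed sign for 17 of the 81 tested members under median-of-ratios scaling, 7 under quantile normalization and 4 under rescaling. Of the 21 members followed through the alternatives (NDUFA3 was not in the fit at a mean TPM of at least 5), it did so under median-of-ratios scaling for ATP5MC2 (0.0143), SDHC (0.0505) and UQCRC2 (0.0740), under quantile normalization for ATP5F1B (-0.0164) and SDHC (0.0333), and under rescaling for UQCRC2 (0.00779). None of these 4 genes was called as reported. The cause of these shifts was not tested.

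Leaving out 1 library, with a lone library assumed to vary like the other group, gave 2 to 13 members called higher, 1 to 3 lower and a members' median of 0.00972 to 0.0673. The medians of complexes I to V ran from 0.0187 to 0.0617, 0.0132 to 0.0744, 0.0454 to 0.142, -0.0492 to 0.0673 and 0.00862 to 0.0631. Log2 fold changes ran across 0 for 39 of the 81 members, and of the 21 for ATP5F1A (-1.08 to 0.0357), ATP5F1B (-0.00105 to 0.0514), SDHC (-0.12 to 0.0617), SDHD (-0.0863 to 0.16), UQCRC1 (-0.00192 to 0.11) and UQCRC2 (-0.0787 to 0.0600).

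The replicate block gave 5 higher and 4 lower, beside 4.02% and 12.6% of all tested genes. ATP5PD and UQCRH lost their calls under the block. The labels do not say that the numbers pair the samples, and the deviations of same-numbered libraries correlated at -0.10 over genes. With the numbers crossed, an alternative chosen after seeing the data, 10 were called higher and 5 lower, beside 6.35% and 17.7% of all tested genes, and 1 (NDUFA5) passed an adjusted p under 0.05 in limma. The depth behind the TPM values is unknown.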
